A study of Mus musculus with 48 samples.

Results

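The exchange of dietary protein for carbohydrate at a fixed fat share of 20% of energy was read in the livers of 9 of the 48 mice of the study, chosen by the diet in their labels. Each diet is named by the shares of energy, in percent, that came from protein, from carbohydrate and from fat. High energy 5/75/20, low in protein and high in carbohydrate, was eaten by 4 mice (numbers 127, 128, 160 and 426). High energy 33/47/20 was the midpoint with 2 mice (131 and 195), and High energy 60/20/20 the high protein end with 3 mice (125, 126 and 194). The main comparison was 5/75/20 minus 60/20/20, 55 points of energy moved from protein to carbohydrate.

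All mice had free access to their diet from 3 weeks of age and were killed at 15 months. Cages held 3 mice and 1 mouse was taken from each cage, so each array stood for a separate animal, and the labels gave no strain. Males and females entered the study, and which mouse was of which sex was not labelled. Total liver RNA was hybridized to Affymetrix arrays, 1 array per mouse, and the deposited values were read as log2 expression.

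Dietary protein above the need for growth is burnt, and the liver carries most of that work: enzymes of amino acid breakdown strip off nitrogen and the urea cycle disposes of it. When amino acids are short, the kinase GCN2 and the transcription factor ATF4 raise genes for amino acid synthesis and uptake, and the liver secretes the hormone FGF21. Carbohydrate in excess feeds glycolysis and fatty acid synthesis in the same cells.

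The promoters of 3 genes of the ATF4 response are shown. They were picked from 8 genes of the ATF4 list that hold the core of the C/EBP-ATF response element, through which ATF4 is known to act. The promoters cover 250 bases before to 50 after the start of transcription, from RefSeq on GRCm38.p6, each printed 5′ to 3′ along the gene. Capitals mark TGATGNAA, searched on both strands (TTNCATCA on the other strand), with positions counted back from the start site. Fgf21, at chr7:45615441-45615740 on the minus strand, held it on the opposite strand from base -139. Nupr1, at chr7:126625421-126625720 on the minus strand, held it on the opposite strand from base -110. Asns, at chr6:7693160-7693459 on the minus strand, held it on the gene's strand from base -23.
Fgf21: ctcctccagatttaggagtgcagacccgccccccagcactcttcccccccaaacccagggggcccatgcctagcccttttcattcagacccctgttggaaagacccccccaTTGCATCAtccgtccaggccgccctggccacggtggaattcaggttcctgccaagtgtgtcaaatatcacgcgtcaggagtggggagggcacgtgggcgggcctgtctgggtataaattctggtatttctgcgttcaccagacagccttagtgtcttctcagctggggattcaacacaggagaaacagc
Nupr1: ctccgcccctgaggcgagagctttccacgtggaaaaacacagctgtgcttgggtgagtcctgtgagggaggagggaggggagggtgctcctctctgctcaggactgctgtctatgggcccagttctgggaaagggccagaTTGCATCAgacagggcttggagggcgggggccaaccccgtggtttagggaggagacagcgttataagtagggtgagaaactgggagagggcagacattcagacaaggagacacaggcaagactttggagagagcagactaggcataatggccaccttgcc
Asns: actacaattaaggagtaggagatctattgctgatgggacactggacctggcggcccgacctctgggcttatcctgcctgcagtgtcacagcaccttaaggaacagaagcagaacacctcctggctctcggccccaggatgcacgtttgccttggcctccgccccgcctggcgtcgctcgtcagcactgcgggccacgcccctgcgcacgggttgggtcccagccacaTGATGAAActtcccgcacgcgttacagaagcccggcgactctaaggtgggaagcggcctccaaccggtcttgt
Of 13129 tested genes with a promoter in the table, 420 (3.2%) held the motif in at least 1 window. Among 24 genes of the ATF4 list it was found in 8 (33.3%). It was found in 2 of the 10 genes described next as higher on 5/75/20, Fgf21 and Arhgef2 (1 of 4 windows of that gene), and in 0 of the 2 lower genes with a promoter in the table. A match is a run of letters and was not tested as a binding site.

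On 5/75/20 the hormone Fgf21 stood 11.3-fold above its level on 60/20/20, and 9 more genes rose with it, among them the serine enzyme Psat1 and the taurine enzyme Csad. Agxt, Hal and Dbt, enzymes of amino acid breakdown, fell. These 13 genes (10 higher, 0.0591%, and 3 lower, 0.0177%) were 0.0768% of the 16926 tested, at a Benjamini-Hochberg adjusted p under 0.05 in limma, and their adjusted p ran between 0.0225 and 0.0498. Before adjustment, 889 genes (5.25%) had a p under 0.05. Each of the 13 kept its sign under every alternative tried, but the count depended on single mice. It was 46 without mouse 127, 5 without 160, 2 without 126, 1 without 125 and 0 without 128, 426 or 194. All 13 had groups that did not overlap, as had 6.97% of all genes tested.

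Fgf21 read 8.04, 8.43, 8.95 and 8.89 in the mice on 5/75/20, 5.75 and 4.49 on 33/47/20, and 4.13, 6.45 and 4.67 on 60/20/20. The 4 low protein mice lay above every other mouse of the exchange, while mouse 126 was the highest on 60/20/20. The difference was 3.50 ± 0.69 (SE; 4 and 3 mice, adjusted p = 0.0385).

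Psat1, the aminotransferase of serine synthesis and a target of ATF4, read 1.65, 2.99, 5.38 and 5.05 on 5/75/20, 1.42 and 1.39 on 33/47/20, and 1.40, 1.20 and 1.31 on 60/20/20. Mouse 127 lay near the other diets, and mice 160 and 426 lay far above them. The difference was 2.46 ± 0.51 (adjusted p = 0.0483). Csad, which decarboxylates cysteine sulfinic acid on the way to taurine, read 7.98, 8.55, 10.05 and 10.39 on 5/75/20, 8.22 and 8.02 on 33/47/20, and 6.33, 6.05 and 6.84 on 60/20/20. Mice 160 and 426 were again the highest, and the 33/47/20 mice lay among the low protein mice rather than with the 60/20/20 mice. Csad differed by 2.83 ± 0.58 (adjusted p = 0.0459).

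Slc17a8, a vesicular glutamate transporter known from neurons, read 7.18, 7.41, 8.01 and 7.39 on 5/75/20, 5.59 and 4.35 on 33/47/20, and 4.38, 4.29 and 4.19 on 60/20/20. The 60/20/20 mice were nearly equal, and the difference was 3.21 ± 0.66 (adjusted p = 0.0459). Slc34a2, a sodium-dependent phosphate transporter, read 5.30, 6.18, 4.01 and 4.18 on 5/75/20, 1.59 and 2.37 on 33/47/20, and 2.01, 2.78 and 1.43 on 60/20/20. Here mice 127 and 128 were the higher pair on 5/75/20, the reverse of Psat1 and Csad. Slc34a2 differed by 2.84 ± 0.52 (adjusted p = 0.0256). Adgrg2, an adhesion receptor coupled to G proteins, read 3.53, 5.31, 4.45 and 5.38 on 5/75/20, 1.79 and 2.22 on 33/47/20, and 1.75, 1.89 and 1.91 on 60/20/20. No mouse on the other 2 diets lay above 2.22, and the difference was 2.82 ± 0.50 (adjusted p = 0.0225).

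Arhgef2, a microtubule-bound exchange factor that activates RhoA, read 6.10, 7.34, 5.88 and 6.45 on 5/75/20, 3.94 and 3.59 on 33/47/20, and 4.04, 4.02 and 3.84 on 60/20/20. Its difference was 2.47 ± 0.47 (adjusted p = 0.0305), and the 5 mice on the other diets lay between 3.59 and 4.04. App, the amyloid precursor protein, read 9.05, 9.64, 9.34 and 9.47 on 5/75/20, 7.94 and 7.33 on 33/47/20, and 7.58, 8.23 and 7.65 on 60/20/20. App differed by 1.56 ± 0.30 (adjusted p = 0.0385). Abca8b, a transporter of the ABC family, differed by 0.96 ± 0.20 (adjusted p = 0.0498), with 7.88, 8.09, 8.26 and 8.56 on 5/75/20, 7.65 and 7.63 on 33/47/20, and 7.54, 7.38 and 6.78 on 60/20/20. The gap between the groups was small for Abca8b, 7.88 in the lowest low protein mouse against 7.54 in the highest on 60/20/20. The predicted gene Gm15408 had a difference of 1.59 ± 0.32 (adjusted p = 0.0456). It read 4.08, 4.81, 4.30 and 4.79 on 5/75/20, 4.10 and 4.20 on 33/47/20, and 2.71, 2.78 and 3.24 on 60/20/20.

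Agxt, the alanine-glyoxylate aminotransferase, read 9.40, 9.05, 8.94 and 8.46 on 5/75/20, 9.68 and 10.17 on 33/47/20, and 9.94, 10.66 and 10.39 on 60/20/20. Its difference was -1.37 ± 0.24 (adjusted p = 0.0225), and mouse 127 was the nearest of the low protein mice to the other diets. Hal, which takes the first step of histidine breakdown, read 9.80, 8.40, 8.60 and 9.65 on 5/75/20, 10.20 and 10.27 on 33/47/20, and 10.36, 10.41 and 10.34 on 60/20/20. The 5 mice above 5% protein differed by little while the low protein mice fell into a higher and a lower pair, and the difference was -1.26 ± 0.26 (adjusted p = 0.0498). Dbt, a subunit of the complex that commits branched-chain amino acids to breakdown, read 8.94, 8.31, 8.64 and 8.61 on 5/75/20, 9.17 and 9.07 on 33/47/20, and 9.37, 9.50 and 9.21 on 60/20/20. Dbt differed by -0.74 ± 0.15 (adjusted p = 0.0452).

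**Figure D1:**
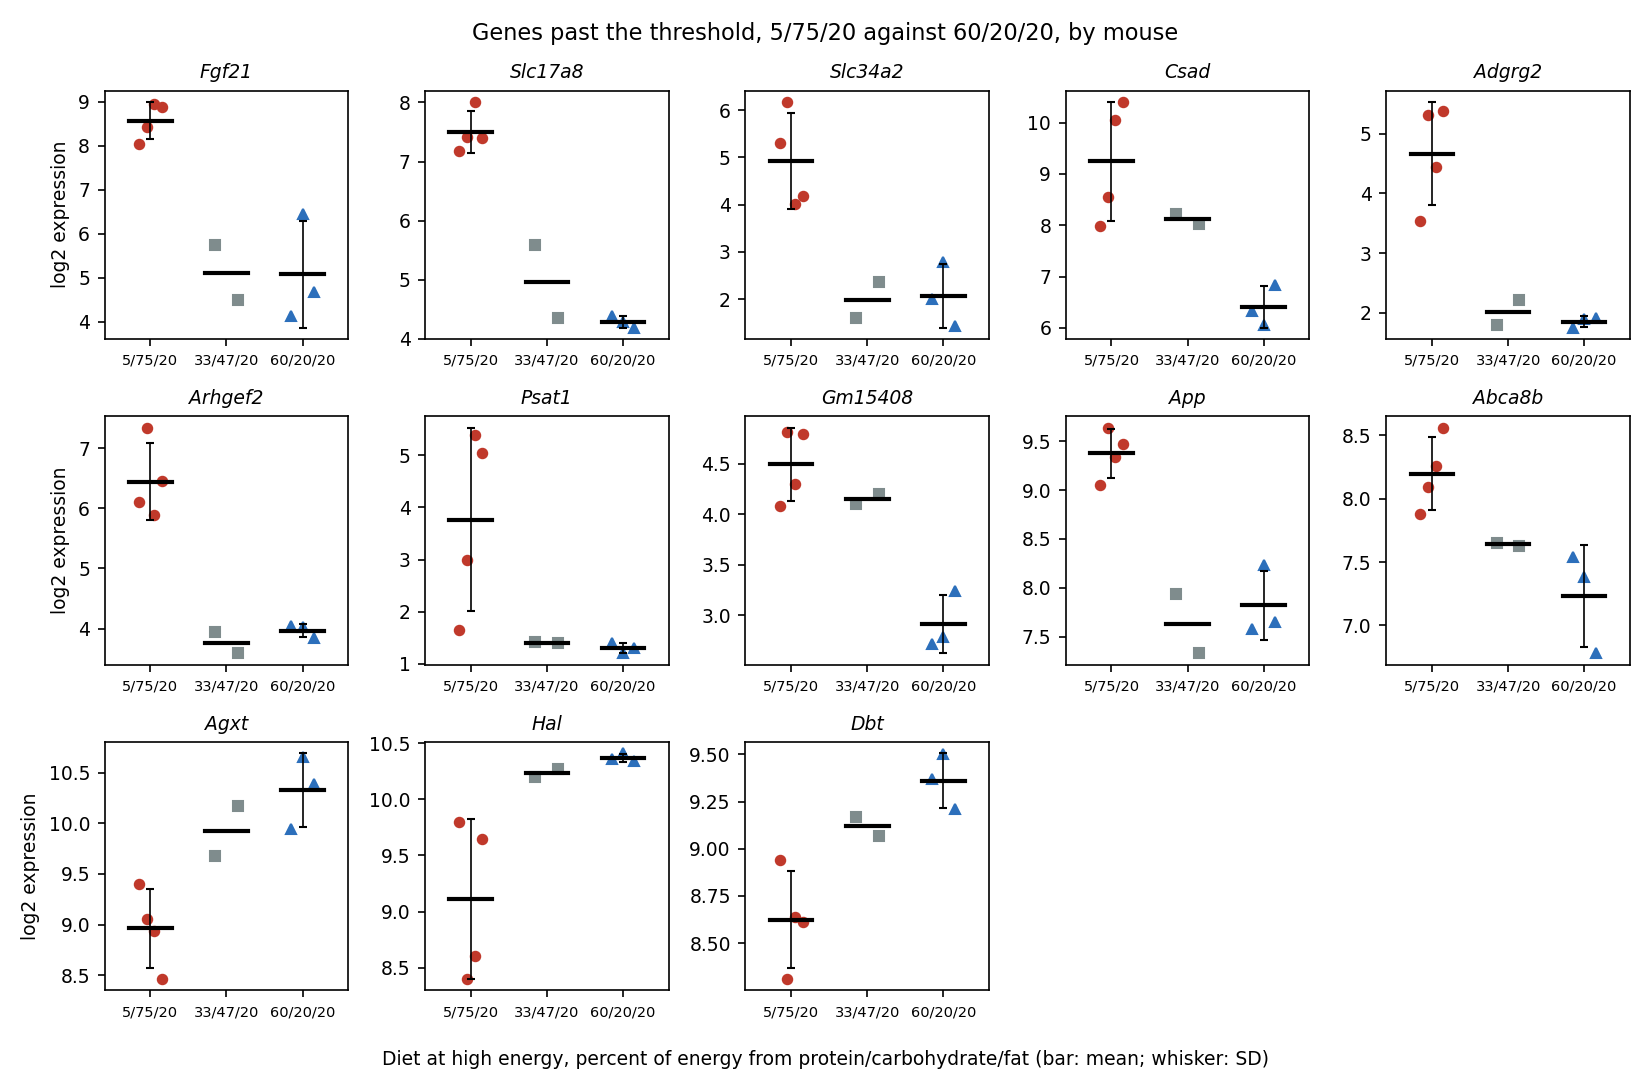
Log2 expression of the 13 genes past the threshold in each mouse, by diet (percent of energy from protein/carbohydrate/fat), with the mean as a bar and the SD as a whisker for groups of 3 or more. In Fgf21, Slc34a2, Adgrg2, Arhgef2, Psat1 and App the 2 mice on 33/47/20 lie at the level of the 60/20/20 mice, and in Csad and Gm15408 nearer the 5/75/20 mice.

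The liver label was checked against markers first. All 9 measured hepatocyte markers had mean levels between 6.91 and 12.9 and none was called, and no marker list of another cell type had a gene past the threshold. The stellate cell list averaged 5.50 to 5.70 on 5/75/20, against 5.21 to 5.57 on 60/20/20 (exact permutation p = 0.0857, two-sided), and 11 of its 14 genes had positive differences. The 3 tested adipocyte genes had differences between -0.76 and -0.27. The adipocyte mean was taken over 5 genes on the array, 2 of which did not pass the low value filter. It was 1.65 to 1.84 on 5/75/20 against 1.87 to 2.20 on 60/20/20 (exact permutation p = 0.0286, the smallest possible). That p was the lowest of all marker means and array measures compared, and was not adjusted for their number. The part of stellate and adipocyte genes in the results was not tested. In bulk liver, fewer cells of a type and less RNA per cell cannot be told apart. Y-linked genes lay above Xist in 3 of 4 mice on 5/75/20, 2 of 2 on 33/47/20 and 2 of 3 on 60/20/20, and Xist lay above them in mice 128 and 126. The interquartile range of the array was 3.43 ± 0.14 on 5/75/20 (SD, n = 4) and 3.28 ± 0.16 on 60/20/20 (SD, n = 3, exact permutation p = 0.257). Arrays of the same diet and of different diets both correlated at a median r of 0.97.

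Genes of amino acid breakdown had mostly negative differences, though few passed one by one. Of 34 tested, 2 fell (Agxt and Hal), 1 rose (Csad), and 31 had negative differences, with a median of -0.53 beside 0.01 for all genes tested, of which 52.2% had positive ones. An unadjusted p under 0.05 was reached downward by 21 (all genes: 2.7%), and in 14 the groups did not overlap downward (all genes: 3.28%). The members with the next smallest p were Ftcd, of histidine breakdown (-0.61 ± 0.14, adjusted p = 0.0903), Hgd, of tyrosine breakdown (-0.60 ± 0.14, adjusted p = 0.0903), and Kynu, of tryptophan breakdown (-0.75 ± 0.18, adjusted p = 0.12). Averaged over the list and set against the mean on 60/20/20, mice 128, 160 and 426 lay at -0.53, -0.55 and -0.55 and mouse 127 at -0.15. The 33/47/20 mice lay at -0.22 and -0.19, and the 60/20/20 mice between -0.06 and 0.06.

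In the urea cycle, 0 of 9 genes passed the threshold and 9 had negative differences, with a median of -0.48. An unadjusted p under 0.05 was reached downward by 5 (all genes: 2.7%). Cps1, which commits ammonia to urea, read 12.16, 11.90, 11.30 and 11.65 on 5/75/20, 11.95 and 12.03 on 33/47/20, and 12.30, 12.41 and 12.28 on 60/20/20. It differed by -0.58 ± 0.13 (adjusted p = 0.0903), and mouse 127 again lay nearest to the high protein mice. Otc, the next enzyme, differed by -0.76 ± 0.18 (adjusted p = 0.112), and Asl by -0.91 ± 0.24 (adjusted p = 0.209). The mean of the 9 genes lay at -0.05 in mouse 127, against -0.52, -0.76 and -0.62 in the other low protein mice.

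Of 24 genes of branched-chain amino acid breakdown, 1 fell (Dbt) and 23 had negative differences, with a median of -0.35. An unadjusted p under 0.05 was reached downward by 12 (all genes: 2.7%). Ivd, which dehydrogenates the leucine product isovaleryl-CoA, differed by -0.88 ± 0.24 (adjusted p = 0.228), and Acadsb, its counterpart for isoleucine, by -0.72 ± 0.205 (adjusted p = 0.267). Sulfur amino acid genes had differences of both signs. Cth, which cleaves cystathionine to cysteine, differed by -1.17 ± 0.29 (adjusted p = 0.12), while Csad, further along the same sulfur, rose. Of the 19 genes of the transsulfuration list, Csad was the only one past the threshold, and 12 had negative differences.

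Genes that make amino acids had mostly positive differences. Of 9 tested for serine, asparagine and proline synthesis, 1 rose (Psat1), 8 had positive differences and 5 an unadjusted p under 0.05 upward (all genes: 2.55%), with a median of 0.97. Mthfd2, of mitochondrial folate metabolism (1.57 ± 0.50, adjusted p = 0.436), Phgdh, the first serine enzyme (0.999 ± 0.39, adjusted p = 0.744), and Aldh18a1, of proline synthesis (0.97 ± 0.39, adjusted p = 0.774), did not pass. Asns, which makes asparagine, read 6.33, 5.31, 8.09 and 7.51 on 5/75/20, 4.42 and 6.62 on 33/47/20, and 6.26, 2.57 and 4.57 on 60/20/20. Those groups overlapped, and its difference of 2.34 ± 1.06 did not pass (adjusted p = 0.905). The list mean lay at 0.40, 0.56, 1.65 and 1.49 in mice 127, 128, 160 and 426, and between -0.31 and 0.18 on 60/20/20.

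Of 31 ATF4 and amino acid response targets, 2 rose (Fgf21 and Psat1) and 27 had positive differences, with a median of 0.47. An unadjusted p under 0.05 was reached upward by 13 (all genes: 2.55%). In 10 the groups did not overlap upward (all genes: 3.69%). Nupr1, a stress-induced chromatin protein, read 4.03, 4.24, 5.36 and 5.02 on 5/75/20, 3.42 and 3.18 on 33/47/20, and 3.18, 3.33 and 3.15 on 60/20/20. Its groups did not overlap, but the difference of 1.45 ± 0.37 did not pass (adjusted p = 0.189). Cth, also a target of ATF4, was the 1 member with an unadjusted p under 0.05 downward. Among 23 amino acid transporters Slc17a8 rose. An unadjusted p under 0.05 was reached upward by 7 (all genes: 2.55%) and downward by 3 (all genes: 2.7%). Slc7a7, an exporter of cationic amino acids, differed by 1.71 ± 0.48 (adjusted p = 0.263), and Slc43a1, a carrier of large neutral amino acids, by -1.82 ± 0.39 (adjusted p = 0.0571).

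The carbohydrate side of the exchange gave no single gene past the threshold in the lists of fatty acid synthesis and glycolysis. Of 22 genes of fatty acid synthesis and desaturation, 0 passed and 16 had positive differences, with a median of 0.22 (0.403 without mouse 194). An unadjusted p under 0.05 was reached upward by 4 (all genes: 2.55%) and downward by 0. In 4 the groups did not overlap upward (all genes: 3.69%). Acaca, the carboxylase that makes malonyl-CoA, read 8.02, 8.50, 8.58 and 8.78 on 5/75/20, 7.94 and 7.28 on 33/47/20, and 7.37, 7.62 and 7.31 on 60/20/20. The difference of 1.04 ± 0.32 did not pass (adjusted p = 0.356), nor did that of Fasn, the fatty acid synthase (1.01 ± 0.61, adjusted p = 0.999). Scd1, the desaturase, read 11.84, 11.27, 11.68 and 11.97 on 5/75/20, 12.26 and 10.42 on 33/47/20, and 11.78, 11.21 and 12.17 on 60/20/20, and those groups overlapped throughout. Srebf1, a regulator of fat synthesis, differed by -0.36 ± 0.30 (adjusted p = 0.999). Among 23 genes of glycolysis and carbohydrate response 0 passed, 18 had positive differences and 6 an unadjusted p under 0.05 upward. In 6 the groups did not overlap upward. Tkfc, the triokinase of fructose breakdown, had the smallest p of both lists (0.81 ± 0.21, adjusted p = 0.189).

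Of 31 genes that burn fatty acids or respond to PPAR alpha 1 rose, and that was Fgf21. The list had 27 positive differences and a median of 0.33 (0.207 without mouse 125 and 0.507 without 126). An unadjusted p under 0.05 was reached upward by 9 (all genes: 2.55%), and in 4 the groups did not overlap upward (all genes: 3.69%). Cpt1a, the gate of mitochondrial fat import, differed by 0.23 (adjusted p = 0.999). Cidec, which enlarges lipid droplets, differed by 2.42 ± 0.67 (adjusted p = 0.258) without overlap, at 5.78, 6.13, 6.75 and 6.70 on 5/75/20, 4.76 and 4.15 on 33/47/20, and 3.86, 4.55 and 3.34 on 60/20/20. It was not past the threshold, and 0 of the 21 lipid droplet genes were. Of 59 genes of oxidative phosphorylation 0 passed, 58 had negative differences and 9 an unadjusted p under 0.05 downward (all genes: 2.7%), with a median of -0.31. Their mean lay at -0.34, -0.45, -0.10 and -0.36 in mice 127, 128, 160 and 426, against -0.19, -0.11 and 0.30 in mice 125, 126 and 194, so the groups overlapped. With the interquartile range of the array in the model the median was -0.22, and without mouse 194 it was -0.13.

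**Figure D2:**
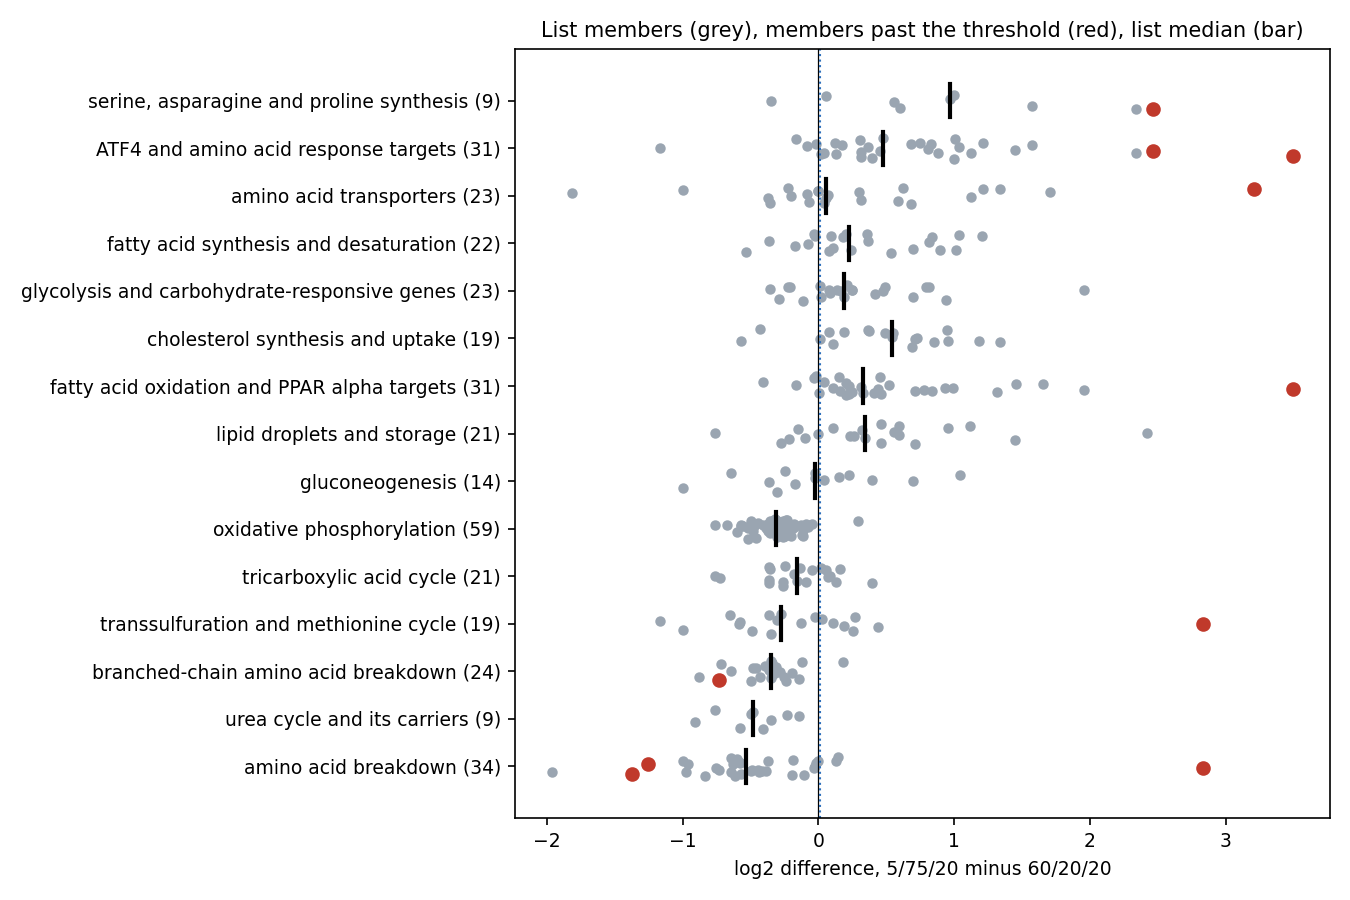
Log2 difference, 5/75/20 minus 60/20/20, of each tested member of 15 gene lists (grey points, number tested in brackets), with members past the threshold in red, the list median as a black bar and the median of all genes as a dotted line. Points of the urea cycle lie wholly left of 0, and those of serine, asparagine and proline synthesis lie right of 0 but for 1.

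The next question was whether expression moved evenly along the exchange. A line through the 3 diets called 20 genes (0.118%), 13 upward (0.0768%) and 7 downward (0.0414%) per 10 points moved from protein to carbohydrate. It held all 13 genes above and 7 more, Corin, Igsf23 and Lhx6 upward, and Nnmt, Lncbate1, Slc43a1 and Spink5 downward. Of these, Corin, Igsf23, Lhx6 and Spink5 were named after their values were seen. The count was 0 without mouse 160, 128, 426 or 194, 1 without 125, 11 without 126 and 38 without 127. Nnmt, which methylates nicotinamide, had a slope of -0.57 ± 0.12 (adjusted p = 0.0424). It read 6.68, 4.80, 2.25 and 3.20 on 5/75/20, 5.52 and 7.26 on 33/47/20, and 7.17, 7.42 and 7.32 on 60/20/20, with mouse 127 again at the level of the other diets.

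An even change would have put 33/47/20 at 49.1% of the way from 60/20/20 to 5/75/20. Means at 33/47/20 stood at 1.05% of that way for Fgf21, 4.23% for Psat1 and 5.56% for Adgrg2, and at -3.42%, -8.33% and -11.9% for Slc34a2, Arhgef2 and App. In these 6 genes the mean at 33% protein lay close to that at 60%. Psat1, Adgrg2 and Slc34a2 averaged 2.08 or less on both diets, near the low end of the array, where lower levels could not be told apart, so their positions are bounded by that floor. Csad stood at 60.4% and Gm15408 at 78.1%, Abca8b at 42.2%, Dbt at 32.8%, Agxt at 29.8%, Slc17a8 at 21.4% and Hal at 10.7%. A test of the departure from the line called 0 genes in limma (0%), with 822 (4.86%) at an unadjusted p under 0.05 and a smallest adjusted p of 0.121, so an uneven course was not shown for any single gene. That test called 38 genes without mouse 131, 4 without 195, 1 without 160, 127, 125 or 194, and 0 without 128, 426 or 126.

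Taken leg by leg, 5/75/20 minus 33/47/20 called 10 genes (0.0591%), all higher with every mouse in the fit, and 33/47/20 minus 60/20/20 called 0 in limma (0%, with 610 or 3.6% at an unadjusted p under 0.05). The midpoint held only 2 mice, and both had Y-linked genes above Xist. Without mouse 131 the upper leg called 45 genes, 14 higher and 31 lower, of which 4 were among the 10. It called 6 without 160, 1 without 195 or 426 and 0 without 128. The lower leg called 22 without 131 and 1 without 195. Slc34a2 (2.94), Arhgef2 (2.68) and App (1.74) were among the 10.

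Lepr, the leptin receptor, had the largest difference among these 10, 4.63 ± 0.89 or 24.8-fold (adjusted p = 0.0412). It read 7.93, 9.19, 8.33 and 7.95 on 5/75/20, 3.74 and 3.70 on 33/47/20, and 4.34, 7.43 and 4.22 on 60/20/20. Mouse 126, with Xist above the Y-linked genes, was the only mouse above 5% protein near the low protein mice, and over the whole exchange Lepr did not pass (3.02 ± 0.78, adjusted p = 0.189). Lpin1, a phosphatidate phosphatase of fat synthesis, read 11.26, 10.95, 9.31 and 10.99 on 5/75/20, 8.15 and 7.17 on 33/47/20, and 11.32, 10.56 and 8.97 on 60/20/20. Both ends of the exchange thus overlapped and the midpoint lay below them (2.97 ± 0.60 over the upper leg, adjusted p = 0.0412). Klf10, a transcription factor, had the same shape at 6.79, 7.78, 7.70 and 7.54 on 5/75/20, 5.52 and 5.71 on 33/47/20, and 6.26, 7.10 and 6.76 on 60/20/20. Klf10 differed by 1.84 ± 0.29 over the upper leg (adjusted p = 0.00817), and its departure from the line was -1.46 ± 0.27 (adjusted p = 0.121).

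Sult1e1, the estrogen sulfotransferase, had the other shape. It read 2.03, 3.01, 1.08 and 1.50 on 5/75/20, 2.01 and 2.48 on 33/47/20, and 6.50, 5.49 and 5.58 on 60/20/20. Only the 60/20/20 mice were high, mouse 126 among them, and the whole difference of -3.95 ± 0.91 was not past the threshold (adjusted p = 0.0891).

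**Figure D3:**
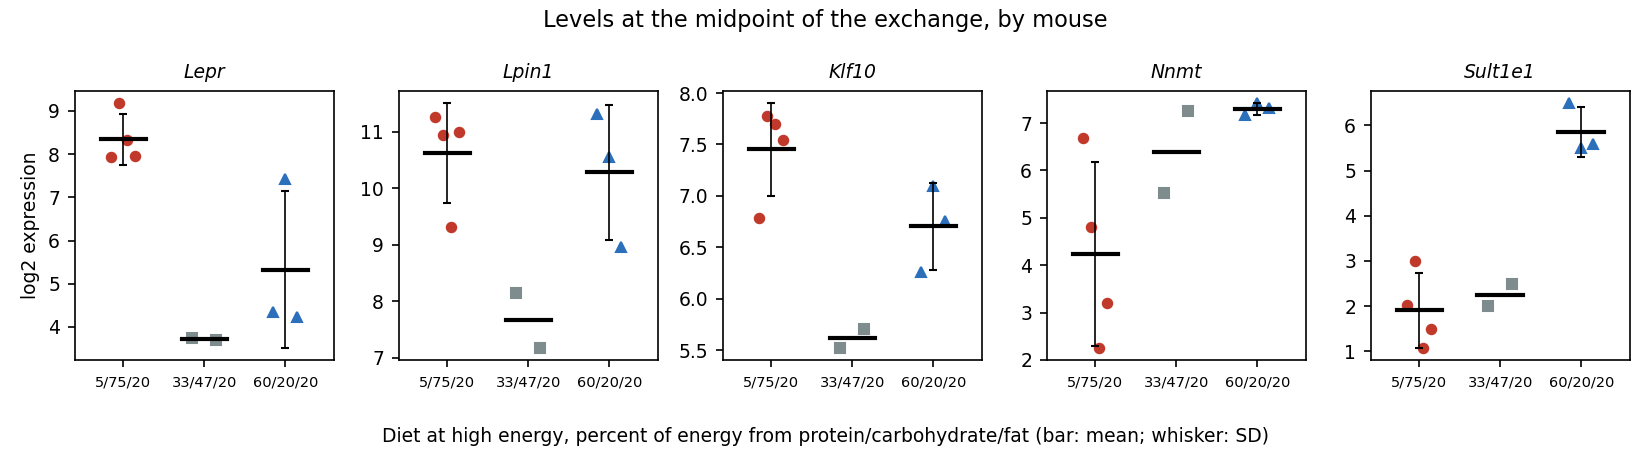
Log2 expression of Lepr, Lpin1, Klf10, Nnmt and Sult1e1 in each mouse by diet, with the mean as a bar and the SD as a whisker for groups of 3 or more. Lpin1 and Klf10 are lowest in the 2 mice on 33/47/20, while Sult1e1 at 33/47/20 lies with the 5/75/20 mice.

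Whether low protein levels depended on what replaced protein was asked with 5/75/20 minus High energy 5/20/75, the diet in which fat took the place of carbohydrate (2 mice, numbers 129 and 130). Y-linked genes lay above Xist in 1 of these 2, and their arrays had a mean interquartile range of 3.58. Of the 13 genes, 0 differed between these diets in limma (all genes: 0.065%), and 3 of them (Abca8b, Adgrg2 and Slc34a2) had an unadjusted p under 0.05 (all genes: 4.37%). Fgf21 read 8.21 and 8.39 on 5/20/75, within the range of 5/75/20, and the difference was 0.28 ± 0.78. Differences of the other 12 ran between -1.22 ± 0.56 for Adgrg2 and 1.38 ± 0.59 for Slc34a2. With 4 and 2 mice these errors leave room for differences of that size, so equal levels were not shown.

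Over all genes 11 differed between the 2 diets of 5% protein, 5 higher (0.0295%) and 6 lower (0.0354%) on 5/75/20. Scd1, at 11.84, 11.27, 11.68 and 11.97 on 5/75/20 and 9.22 and 9.26 on 5/20/75, was higher by 2.45 ± 0.38, or 5.47-fold (adjusted p = 0.00136). Over the exchange of protein for carbohydrate its groups overlapped, with a difference of -0.03 ± 0.34. Cps1 read 12.16, 11.90, 11.30 and 11.65 on 5/75/20 and 10.81 in both mice on 5/20/75, a difference of 0.94 ± 0.15 (adjusted p = 0.00182). Its levels on 5/20/75 were below those of all 9 mice of the 20% fat exchange. Ces3b, a carboxylesterase, was higher by 3.57 ± 0.73 (adjusted p = 0.0424), and Urad, an enzyme of uric acid breakdown, by 2.52 ± 0.36 (adjusted p = 0.000415). Gm5424, a pseudogene related to the urea cycle gene Ass1, was higher by 1.35 ± 0.23 (adjusted p = 0.0041), and signal from Ass1 transcripts on its probe set cannot be told apart from its own.

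Among the 6 lower genes, Cables1, a binding partner of cyclin-dependent kinases, read 2.21, 2.74, 2.18 and 2.30 on 5/75/20 and 3.88 and 3.90 on 5/20/75 (-1.53 ± 0.29, adjusted p = 0.0221). Bcl6b, a transcriptional repressor, had a difference of -1.82 ± 0.37 (adjusted p = 0.0377). Trpm6, a magnesium channel (-1.25), Lyl1, a transcription factor of blood cells and vessels (-1.15), and Sag, a visual arrestin (-1.73), had levels below 2 on 5/75/20, near the low end of the array. The count of 11 was 2 without mouse 130, 6 without 160 or 127, 8 without 129 or 426 and 9 without 128.

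**Figure D4:**
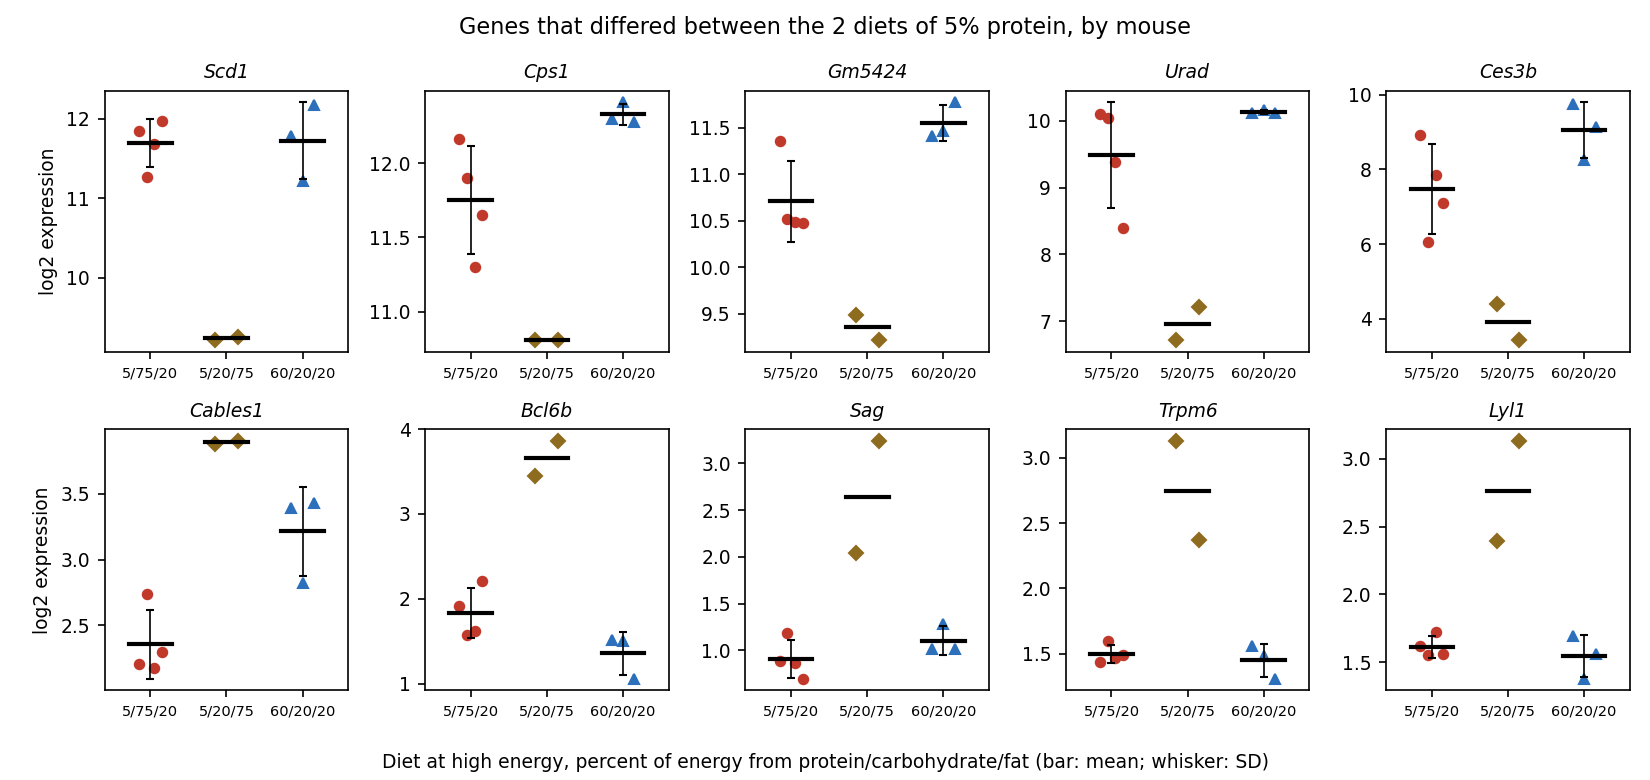
Log2 expression in each mouse on 5/75/20, 5/20/75 and 60/20/20 of 10 genes that differed between the 2 diets of 5% protein, with the mean as a bar and the SD as a whisker for groups of 3 or more. Scd1 is as high on 5/75/20 as on 60/20/20 and about 2.45 lower on 5/20/75, while Cps1 and Gm5424 are highest on 60/20/20 and lowest on 5/20/75.

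The exchange was set beside the same exchange at other fat shares, in mice of which none ate the 20% fat diets. At 47 to 48% fat it was 5/48/48 (4 mice) minus 33/20/47 (2 mice), both high energy, and 28 points were exchanged. That comparison called 904 genes (5.34%), and its count was 1 without mouse 162, 607 without 198, 229 without 199, 317 without 135, 194 without 435 and 1562 without 434. The 13 genes had the same sign there in 13 cases, and 8 were called: Arhgef2, App, Abca8b, Agxt, Adgrg2, Slc34a2, Hal and Psat1. Of all genes tested 64.7% had the same sign in both comparisons. Among the 889 genes with an unadjusted p under 0.05 at 20% fat that share was 84.6%. Y-linked genes lay above Xist in 2 of 4 mice on 5/48/48 and in 0 of 2 on 33/20/47, and with that value in the model 13 had the same sign and 11 were called. With the interquartile range of the array in the model, which averaged 3.48 on 5/48/48 and 3.12 on 33/20/47, the counts were 13 and 5.

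Arhgef2 read 6.75, 7.23, 6.27 and 7.52 on 5/48/48 against 3.66 and 3.72 on 33/20/47, a difference of 3.25 ± 0.53 (adjusted p = 0.00167). App read 9.92, 10.46, 9.62 and 10.44 on 5/48/48 against 7.72 and 8.06 on 33/20/47 (2.22 ± 0.34, adjusted p = 0.00102). Agxt read 9.03, 9.17, 8.80 and 9.25 on 5/48/48 against 10.56 and 10.47 on 33/20/47 (-1.45 ± 0.28, adjusted p = 0.00497). For Arhgef2 and Agxt the low protein mice overlapped the low protein mice at 20% fat. App averaged 10.11 on 5/48/48, above its mean of 9.38 in the low protein mice at 20% fat. On 33/20/47 Arhgef2, App and Agxt averaged 3.69, 7.89 and 10.51. Their means at the high protein end at 20% fat were 3.97, 7.82 and 10.33. Fgf21 read 8.89, 10.01, 8.28 and 8.34 on 5/48/48 against 6.70 and 6.27 on 33/20/47, and the difference of 2.39 ± 0.78 did not pass (adjusted p = 0.0613). Csad was the least alike, with 9.72, 9.49, 10.10 and 9.31 on 5/48/48 against 7.77 and 9.17 on 33/20/47 (1.19 ± 0.66, adjusted p = 0.256).

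The lists of amino acid metabolism and oxidative phosphorylation were read at 47 to 48% fat as well. Amino acid breakdown had a median of -0.75 with 15 genes called lower, branched-chain breakdown -0.66 with 14, oxidative phosphorylation -0.64 with 24 and the urea cycle -0.59 with 6 of 9. ATF4 targets had a median of 0.86 with 8 called higher and 1 lower, and serine, asparagine and proline synthesis 1.19 with 2 higher. Over all genes 2.57% were called higher and 2.77% lower there. All these counts come from the fit whose 904 genes became 101 with the interquartile range of the array in the model. Other lists had medians of opposite sign in these exchanges, among them cytosolic ribosomal proteins, with 0.18 at 20% fat (0.368 without mouse 194 and 0.075, 0.0844 and 0.0879 without 160, 125 and 126) and -0.11 at 47 to 48% fat.

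At 29% fat the exchange was 14/57/29 (4 mice) minus 42/29/29 (4 mice), each over high and medium energy, and it called 27 genes (0.16%). Each energy level had equal weight, with 2 high and 2 medium energy mice on 14/57/29 and 1 high and 3 medium energy mice on 42/29/29. Mouse 440 thus stood alone for high energy 42/29/29, and its array had the lowest interquartile range of all 48, 2.78. Y-linked genes lay above Xist in 2 of 4 mice on 14/57/29 and in 1 of 4 on 42/29/29. The 13 genes had the same sign in 11 cases, against 60.2% of all genes, and 0 were called in limma, with 5 at an unadjusted p under 0.05 and the same sign (all genes, either sign: 17.3%). The sign was shared by 10 with the interquartile range in the model, by 11 within high energy, where mouse 440 was the only 42/29/29 mouse, and by 8 within medium energy, a split by energy added after the data were seen. Within medium energy Fgf21 averaged 5.59 on 14/57/29 and 6.06 on 42/29/29, and Arhgef2 4.10 on 14/57/29 and 4.74 on 42/29/29. Slc17a8 (2.02 ± 0.66, adjusted p = 0.142) and Csad (1.84 ± 0.58, adjusted p = 0.135) had the smallest adjusted p. Psat1 (-0.23 ± 0.51) and Gm15408 (-0.28 ± 0.32) had the opposite sign. Protein did not go below 14% there. Medians of the lists at 29% fat were -0.19 for amino acid breakdown, -0.30 for branched-chain breakdown, -0.39 for oxidative phosphorylation and -0.22 for the urea cycle. They were 0.11 for ATF4 targets and 0.09 for serine, asparagine and proline synthesis. Of the genes of these lists 0 were called at 29% fat in either direction. The count of 27 was 0 without mouse 138, 387 or 192, 4 without 120 or 154, 49 without 438 and 63 without 122. Whether the change differed with fat share was tested over the same 28 points, (5/75/20 minus 33/47/20) minus (5/48/48 minus 33/20/47), a contrast added after the data were seen. It called 1 gene (0.00591%), Rps4l-ps, a ribosomal pseudogene, and none of the 13. That call needed both mice on 33/47/20. The count was 0 without mouse 127, 160, 135, 199 or 162, 2 without 426 or 434, 5 without 131 and 14 without 198.

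**Figure D5:**
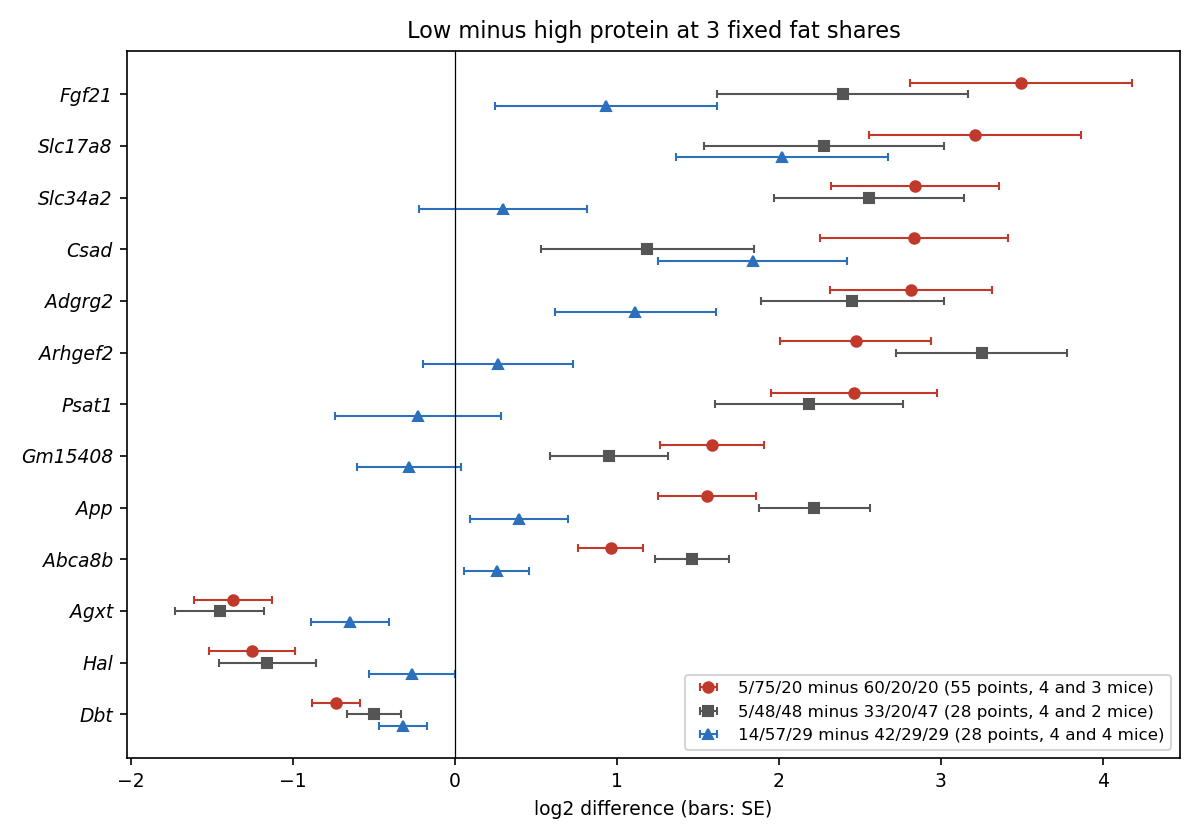
Log2 difference with its SE for the 13 genes in 3 exchanges of protein for carbohydrate, 5/75/20 minus 60/20/20 (red), 5/48/48 minus 33/20/47 (grey) and 14/57/29 minus 42/29/29 (blue). Red and grey points share their sign for all 13 genes, and blue points lie nearer 0 than red for all 13.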

How the data were processed

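Liver RNA of 48 mice was measured on 1 Affymetrix array each, and the files gave values for 41345 probe sets. The deposited values were taken as log2 expression from their range, -0.51 to 13.42; background correction and normalization by the authors are not given in the sources used here. Array annotation gave 1 gene symbol to 23521 probe sets, several to 1814 and none to 16010. Probe sets with 1 symbol were kept, 22180 genes in all, of which 1082 had several probe sets and were represented by the one with the highest mean. The low value filter kept the 16926 genes whose mean passed 1.17, the 30th percentile of probe set means.

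A mean was fitted for each of 20 combinations of energy and diet over all 48 mice in limma 3.58.1 (R 4.3.3) with empirical Bayes moderation and an intensity trend, so the spread was shared among diets. P-values were adjusted by Benjamini-Hochberg over all genes tested, at 0.05. The slope was fitted through the 3 diets at 20% fat. Marker means and array measures were compared by exact two-sided permutation over mice. Each fit was also tried on simulated data.

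Genes named were, for 5/75/20 minus 60/20/20, up to 12 with the largest positive and up to 12 with the largest negative differences past the threshold, up to 4 members of each list with the smallest p, and a set of 11 (Cps1, Asns, Fgf21, Igf1, Igfbp1, Pck1, Cyp7a1, Cpt1a, Fasn, Scd1 and Srebf1); for other comparisons, up to 5 each way past the threshold, or the 5 with the smallest p where none passed. Genes named outside this rule were chosen after their values were seen. The diets compared and the gene lists were chosen with earlier results of these data known, so a list is described by its counts and median only. Mouse numbers are unique and pair no mice. The number of arrays limits the precision, since 2 to 4 mice stood for a diet. Results for diets other than those named were not analysed here.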

Additional observations from a re-analysis of the deposited data

Results flagged for a closer look

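Among 169 named genes, 7 had 1 mouse on 5/75/20 standing apart from the other 3 by Dixon's 95% limit, and chance does this in about 1 of 20 groups. Moxd1 read 4.68 in mouse 127 and 0.75 to 0.85 in the others. Cdkn1a, a cell cycle inhibitor, read 8.32 in mouse 160 against 9.67 to 9.85, Stab1 of sinusoidal endothelium 5.98 against 6.61 to 6.70, and Tmem255a 1.25 against 1.17 to 1.18. Mouse 128 stood low in Nr1h4, the bile acid receptor, at 7.80 against 8.28 to 8.35, and in Mdh1 at 9.60 against 9.83 to 9.88. Bdh1, of ketone body metabolism, read 8.11 in mouse 127 against 8.52 to 8.54.

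Rps4l-ps was the 1 gene whose change over 28 points of protein differed between 20% and 47 to 48% fat, by 2.72 ± 0.47 (adjusted p = 0.0336). It read 2.82, 1.87, 2.83 and 1.92 on 5/75/20 and 1.59 and 1.65 on 33/47/20. On 5/48/48 it read 1.50, 1.40, 1.54 and 1.84, and on 33/20/47 3.83 and 3.26. Readings on 33/47/20 and 5/48/48 lay near the low end of the array, where the low value filter stood at 1.17. The call needed both mice on 33/47/20, and the gene was not among the 7 called with only the diets compared. As a pseudogene of a ribosomal protein gene, its signal cannot be told apart from that of close copies.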

How the results depend on the processing

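The 13 genes of 5/75/20 minus 60/20/20 kept their sign under every alternative, while the count of all genes called changed. It was 6 with no filter on low values, 23 with the filter at the 50th percentile, 4 with arrays centred on their median, 63 with array weights, 4 with only the mice of the exchange, 26 with high energy mice only, 27 with a Y-linked minus Xist term, 8 with a term for mouse numbers over 300, 7 without the intensity trend and, added after the data were seen, 29 with Y-linked minus Xist and interquartile range terms together. Leaving out 1 mouse gave 0 to 46. Of the 13 genes, 2 were among the 4 called with only the mice of the exchange, and 11 among the 26 with high energy mice only. Under the 13 alternatives that kept every 5/75/20 and 60/20/20 mouse, Abca8b and Hal were called in 5, Psat1 in 6 and Arhgef2 in 13. The slope called 13 genes with quantile normalization, 3 with centring, 59 with array weights, 1 with only the mice of the exchange, 12 with the interquartile range term, 6 with the mouse number term and 0 to 38 with 1 mouse left out. The departure test called 1 with array weights, 1 with the Y-linked minus Xist term and 0 to 38 with 1 mouse left out. For 5/75/20 minus 33/47/20 the count was 1 with centring, 4 with only the diets compared, 2 with the interquartile range term, 2 with the mouse number term, 1 without trend and 0 to 45 with 1 mouse left out. For 33/47/20 minus 60/20/20 it was 1 with high energy mice only and 0 to 22 with 1 mouse left out. For 5/75/20 minus 5/20/75 it was 7 with the filter at the 50th percentile, 7 with quantile normalization, 105 with array weights, 3 with only the diets compared and 2 to 9 with 1 mouse left out.

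At 29% fat the count was 52 with no filter, 16 at the 50th percentile, 51 with quantile normalization, 0 with centring, 939 with array weights, 0 with only the diets compared, 57 with the Y-linked minus Xist term, 0 with the interquartile range term and 0 to 63 with 1 mouse left out. At 47 to 48% fat it was 496 with centring, 2836 with array weights, 1907 with only the diets compared, 1912 with the Y-linked minus Xist term, 101 with the interquartile range term and 1 to 1562 with 1 mouse left out. The test between 20% and 47 to 48% fat called 2 genes at the 50th percentile, with quantile normalization, with array weights or with high energy mice only, 7 with only the diets compared, 3 with the interquartile range term and 0 to 14 with 1 mouse left out. The causes were not tested.

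Differences near 0 turned their sign. Scd1, at -0.03, was 0.000502 with quantile normalization, 0.00683 with centring, 0.076 with array weights, 0.085 with the mouse number term and -0.29 to 0.20 with 1 mouse left out. Cpt1a, at 0.23, was -0.029 with the interquartile range term, -0.041 with both terms and -0.13 to 0.51 with 1 mouse left out. Cyp7a1, at 0.26, was -0.28 to 0.55 with 1 mouse left out. No paired analysis was possible because mouse numbers are unique.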

Other observations

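Genes known to differ between male and female liver spread widely within 5/75/20 and within 60/20/20. The mean of 21 female-higher genes, set against the 60/20/20 mean, lay at 0.44, 2.32, -0.08 and -0.39 in mice 127, 128, 160 and 426 on 5/75/20, at -1.45 and -2.38 in mice 131 and 195 on 33/47/20, and at -1.59, 2.24 and -0.66 in mice 125, 126 and 194 on 60/20/20. Mice 128 and 126, with Xist above the Y-linked genes, were the highest of their diets. None of the 21 was called in limma, with 0 higher (all genes: 2.55%) and 1 lower (all genes: 2.7%) at an unadjusted p under 0.05.

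Of 23 acute phase genes 16 had positive and 7 negative differences, with a median of 0.135. Apcs, the serum amyloid P component, read 8.96, 9.06, 9.61 and 8.52 on 5/75/20, 7.85 and 10.36 on 33/47/20, and 6.72, 7.37 and 8.27 on 60/20/20 (1.59 ± 0.54, adjusted p = 0.506). Orm1, a plasma carrier protein of the acute phase, read 9.65, 7.65, 7.45 and 5.58 on 5/75/20, 9.75 and 11.75 on 33/47/20, and 10.14, 9.68 and 10.35 on 60/20/20 (-2.47 ± 0.66, adjusted p = 0.209). Hamp2, of the hepcidin family of iron hormones, read 4.86, 5.95, 5.21 and 5.80 on 5/75/20, 6.85 and 4.23 on 33/47/20, and 6.99, 9.91 and 9.59 on 60/20/20 (-3.38 ± 1.14, adjusted p = 0.506). In all 3 genes, picked from the members with the smallest p, 5/75/20 and 60/20/20 did not overlap. Over the list the groups did not overlap upward in 4 genes (all genes: 3.69%) and downward in 3 (all genes: 3.28%). In limma 0 of the 23 genes passed. An unadjusted p under 0.05 was reached upward by 3 (all genes: 2.55%) and downward by 4 (all genes: 2.7%). Of 40 cytosolic ribosomal protein genes 0 passed and 38 had positive differences (all genes: 52.2%), with a median of 0.18. An unadjusted p under 0.05 was reached upward by 6 (all genes: 2.55%). With the interquartile range of the array in the model the median was 0.303 and 19 had an unadjusted p under 0.05 upward. In that fit 1123 of all 16926 genes had such a p in either direction. Without the term, the median was 0.368 with mouse 194 left out, and 0.075, 0.0844 and 0.0879 with 160, 125 and 126 left out.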
